A study of Rattus norvegicus with 6 samples.

Results

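Ribosomal protein genes encode the proteins that, together with ribosomal RNA, build the large and the small subunit of the cytoplasmic ribosome. The genes described here were those whose probe sets carried a single gene symbol for a large-subunit (Rpl), small-subunit (Rps) or stalk protein, with the S6 kinase genes left out, and the probe set with the highest mean signal stood for a gene. The rule found 41 of the 4736 genes measured, 29 of the large and 12 of the small subunit, read by 60 of 8740 probe sets. Transcripts were measured in the medial prefrontal cortex of male Sprague-Dawley rats killed 90 min after an intraperitoneal injection of either 1.0 mg/kg (+)-LSD tartrate or saline. LSD is a hallucinogen that acts on serotonin receptors. Each group was read on 3 Affymetrix arrays, called Saline 1 to 3 and LSD 1 to 3. Per the labels the tissue of 4 animals was pooled in each group, whereas the study describes each array as an independent pool of a pair of rats. Since these accounts differ, the spread between arrays may be technical, and p-values and intervals measure only that spread. The groups were taken from the titles and treatment labels; the second line of each description names the other treatment, and were it right, all signs given here would be turned.

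Ribosomal proteins are made in nearly equal amounts and are among the most abundant products of any cell, neurons included. Their mRNAs begin with a run of pyrimidines, the terminal oligopyrimidine (TOP) tract, through which mTOR signalling sets how strongly they are translated. Neurons also hold these mRNAs in dendrites and axons. A change in the translation of such an mRNA need not show in its level, and the arrays measure only the level.

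Pyrimidine runs near the annotated start were searched in the RefSeq promoters of 36 of the 41 genes (assembly GRCr8). The windows held 300 bases, 250 before and 50 after the annotated start. A run that ends before this start is not part of the annotated mRNA, so it need not be a TOP tract. A run of at least 10 pyrimidines lay within 20 bases of the start, on the gene's strand, in 20 of the 36 genes (55.6%), against 6.9% of all 33469 promoters. A run of at least 8 was present in 66.7% against 15.5%. The following stretches of 30 bases, 15 before the annotated start and 15 from it on, are shown because they carry this shared feature or its absence in genes described below. Capitals mark the longest pyrimidine run as far as it falls in the stretch.
Rps24: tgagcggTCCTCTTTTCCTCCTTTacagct
Rpl19: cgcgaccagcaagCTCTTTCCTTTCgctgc
Rpl31: ccacaatccctcgcgCCTTTCCTTTCCaac
Rplp0: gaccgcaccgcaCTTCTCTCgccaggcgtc
Rpl13a: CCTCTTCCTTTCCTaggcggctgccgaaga
Rpl5: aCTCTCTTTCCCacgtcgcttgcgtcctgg
Rpl3: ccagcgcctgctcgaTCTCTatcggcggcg
Rps6: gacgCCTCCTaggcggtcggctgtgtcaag
They lie at chr16:96502-96531 (plus strand) for Rps24, chr10:83519049-83519078 (plus) for Rpl19, chr9:49143096-49143125 (plus) for Rpl31, chr12:46718376-46718405 (minus) for Rplp0, chr1:104748899-104748928 (minus) for Rpl13a, chr14:1995211-1995240 (minus) for Rpl5, chr7:113507976-113508005 (minus) for Rpl3 and chr5:106420526-106420555 (minus) for Rps6.

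The run was 17 bases long in Rps24, 14 in Rpl13a, 12 in Rpl19 and Rpl31, 5 in Rpl3 and 6 in Rps6. It spanned the annotated start in 16 of the 36 genes, and in Rpl13a, Rpl5 and Rps6 it ended before it. A C at the annotated start followed by at least 4 pyrimidines was found in 11 of the 36 genes (30.6%, against 2.63% of all promoters). The hexamer CTTTCC, which is part of several of the runs shown, was found on the gene's strand within 20 bases of the start in 33.3% of the genes and in 1.73% of all promoters. Searched on both strands of the 300 bases, CTTTCC was held by 50.0% against 26.4%, CCGGAAG, a sequence bound by ETS family factors, by 9 of the 36 genes against 8.75% of all promoters, and AAGATGGCG, a sequence bound by YY1, by 8.33% against 1.73%. The TATA box sequence TATAAA lay in the 250 bases before the start, on the gene's strand, in 5.56% of the genes and 8.06% of all promoters. A match is a description of the letters and not a site of binding.

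Across the 41 genes, LSD arrays differed little from Saline arrays. None passed an adjusted limma p of 0.05 in either direction, against 0% of all genes higher and 0.0211% lower by the same rule. The log2 change (LSD minus Saline) had a median of 0.028, beside 0.0056 over all genes, and ran from -0.34 for Rpl3 to 0.89 for Rpl19l4. On average 24 genes were higher and 17 lower after LSD, compared with 2448 and 2288 of all genes. Of the large-subunit genes 17 were higher and 12 lower, with a median of 0.038, and of the small-subunit genes 7 were higher and 5 lower, with a median of 0.019. The tissue was measured in bulk, so fewer cells of a type and less RNA per cell cannot be told apart.

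**Figure D1:**
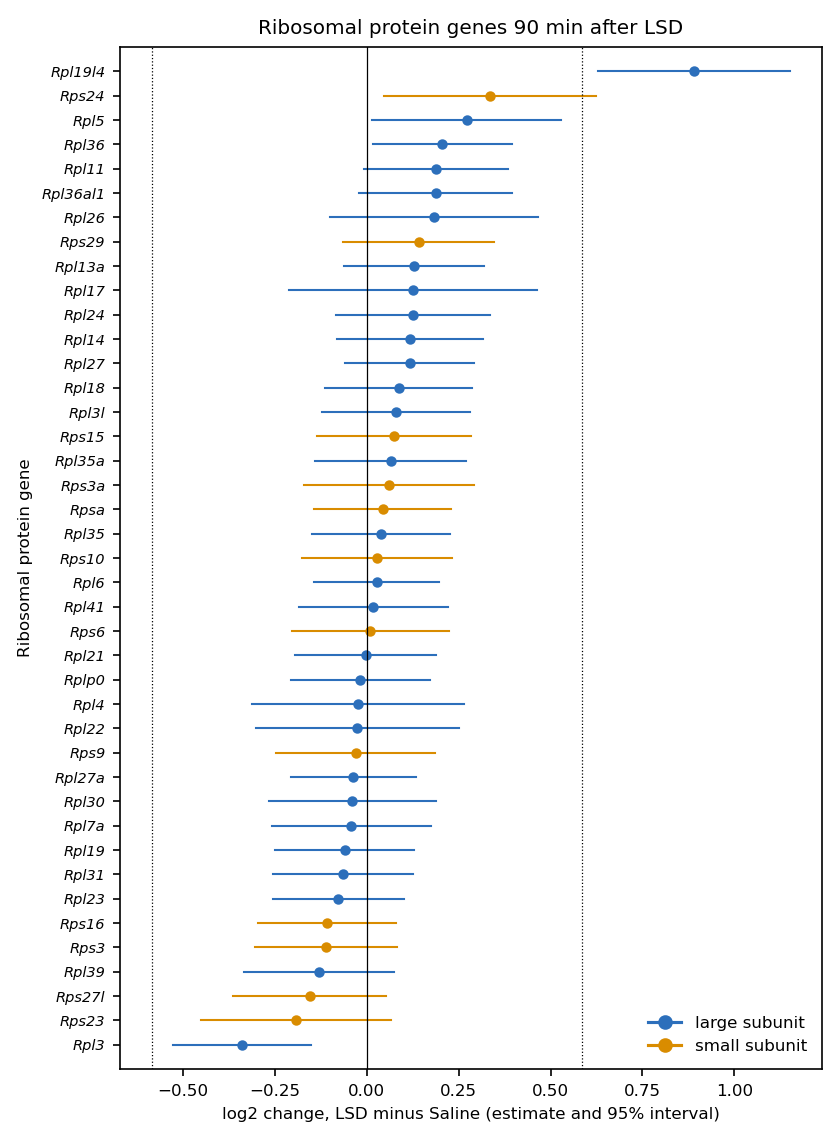
Log2 change (LSD minus Saline, horizontal axis) of the 41 ribosomal protein genes (vertical axis), with points for the limma estimate and lines for its 95% interval (n = 3 arrays per group), large-subunit genes in blue and small-subunit genes in orange. Dotted lines mark a 1.5-fold difference either way; 39 of the 41 intervals lie between them, and those of Rpl19l4 and Rps24 pass the right line.

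How large a difference the spread between these arrays leaves possible is given by the intervals. If the arrays of a group are technical replicates, the spread between animals is not covered by them. For 39 of the 41 genes the 95% interval of the limma fit lay within 1.5-fold either way, and for all 41 it stayed above a 1.5-fold lower level. Over all genes 4452 of 4736 intervals lay within 1.5-fold. The residual SD, the spread between arrays of a group, had a median of 0.089 log2 units for the ribosomal protein genes, 0.124 over all genes and 0.088 over the other genes among the brightest 473. These 473 genes, ranked by mean log2 value, held 30 of the 41. This is a rank of signal, which depends on the probes as well as on the transcript, and not of transcript abundance.

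An unadjusted limma p below 0.05 was found for 4 genes higher after LSD (9.76% of the 41, against 2.47% of all genes), which were Rpl19l4, Rps24, Rpl36 and Rpl5, and for Rpl3, which was lower (2.44% against 1.16%). All 3 LSD arrays lay above all 3 Saline arrays for 7 genes (17.1%, against 6.97% of all genes) and below them for 1 (2.44% against 3.34%). These shares on the higher side exceeded those of all genes, but rest on few genes, of which none passed after adjustment over all 4736. All genes also include many dimmer ones. Among 564 other genes with a mean signal between the quartiles of the 41, the groups were without overlap for 52 higher and 47 lower. Of the same 564, 16 higher and 17 lower had an unadjusted limma p below 0.05.

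Rpl19l4, annotated as an Rpl19-like gene, stood furthest from 0. Its log2 values were 6.72, 6.76 and 6.56 on the Saline arrays and 7.79, 7.43 and 7.49 on the LSD arrays. The groups were clearly separate. The mean went from 6.68 ± 0.11 to 7.57 ± 0.19 (SD, n = 3), 1.85-fold higher after LSD with a 95% interval from 1.55 to 2.22-fold, at a limma p adjusted over all genes of 0.0684. Across 15 other ways to process the data the adjusted limma p ran from 0.00823 to 0.501 and passed the threshold in 4. It was read by 1 probe set, X07686cds_s_at, whose type of name marks probe sets that can match several transcripts, so the signal cannot be assigned to this gene with certainty. Rpl19 itself, a large-subunit protein that takes part in the contact between the subunits, had values of 10.43, 10.47 and 10.42 after saline and 10.38, 10.47 and 10.29 after LSD. Here the groups overlapped, with a log2 change of -0.06 ± 0.082 (SE). Without Rpl19l4, left out after its value was seen, the remaining 40 genes had a median of 0.027 and an SD of their changes of 0.130, the same as the 0.130 of all genes.

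The large-subunit gene with the lowest log2 change was Rpl3, whose protein reaches towards the centre where peptide bonds are formed. It was at 10.53, 10.59 and 10.49 on the Saline arrays and at 10.29, 10.14 and 10.17 on the LSD arrays. No LSD array reached the lowest Saline array. The log2 change was -0.34 ± 0.082 (SE), with a limma adjusted p of 0.951. In the second Rpl3 probe set, X62166cds_s_at, the values of 9.70, 9.84 and 9.83 after saline and 9.75, 9.68 and 9.65 after LSD overlapped, and the log2 change was -0.10 ± 0.084 (SE). Both probe sets have names of the kind that can match several transcripts. For Rpl3l, the paralog known from muscle, the log2 change was 0.08.

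Higher values on the LSD arrays were measured for Rps24, a small-subunit protein whose gene is mutated in Diamond-Blackfan anaemia. Saline arrays gave 6.25, 6.63 and 6.59 and LSD arrays 6.66, 6.94 and 6.88. The lowest LSD value lay 0.036 above the highest Saline value. This gave a log2 change of 0.34 ± 0.13 (SE; limma adjusted p = 0.971). Saline 1 was the lowest of the 6 arrays, and without it the change was 0.21. A further probe set from the same source sequence, M89646_g_at, is annotated to several genes and had the opposite sign, with a log2 change of -0.25 and overlap. It was the brighter, with a Saline mean of 9.64 against 6.49 for the probe set that stood for Rps24.

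Among the genes of the large subunit, Rpl36 was at 8.64, 8.75 and 8.79 after saline and at 8.95, 8.98 and 8.86 after LSD. The groups did not overlap, and the log2 change was 0.21 ± 0.083 (SE; limma adjusted p = 0.971). Rpl5 and Rpl11 encode proteins that, when not built into ribosomes, bind Mdm2, the ubiquitin ligase that restrains p53. Rpl5 had values of 4.86, 4.53 and 4.63 on Saline arrays and 4.81, 5.06 and 4.97 on LSD arrays. Saline 1 lay above LSD 1, so the groups overlapped, and the log2 change was 0.27 ± 0.11 (SE; limma adjusted p = 0.971). Its mean signal over the 6 arrays was 4.81 log2 units, in a range where RMA compresses differences. The probe set M17419_at, annotated to Rpl5l1 and Rpl5 together, gave 10.28, 10.12 and 10.17 against 10.24, 10.26 and 10.27, with overlap and a log2 change of 0.06. For Rpl11 the values were 9.46, 9.67 and 9.58 after saline and 9.73, 9.74 and 9.81 after LSD, without overlap and with a log2 change of 0.19 ± 0.086 (SE). Its other probe set differed by -0.04 and overlapped.

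Of the remaining genes without overlap, Rpl13a, which also belongs to a complex that silences inflammatory mRNAs, was at 9.66, 9.50 and 9.59 after saline and 9.78, 9.69 and 9.67 after LSD. The margin between the groups was 0.011 log2 units, and the log2 change was 0.13. Its dimmer probe set gave 0.09 and was also without overlap. Rpl27 had Saline values of 9.74, 9.63 and 9.65 and LSD values of 9.79 on all 3 arrays, with a log2 change of 0.12 and 0.13 in its other probe set. Rpl36al1 was at 7.39, 7.26 and 7.41 against 7.65, 7.44 and 7.52, a log2 change of 0.19. None of the 3 genes had an unadjusted limma p below 0.05.

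**Figure D2:**
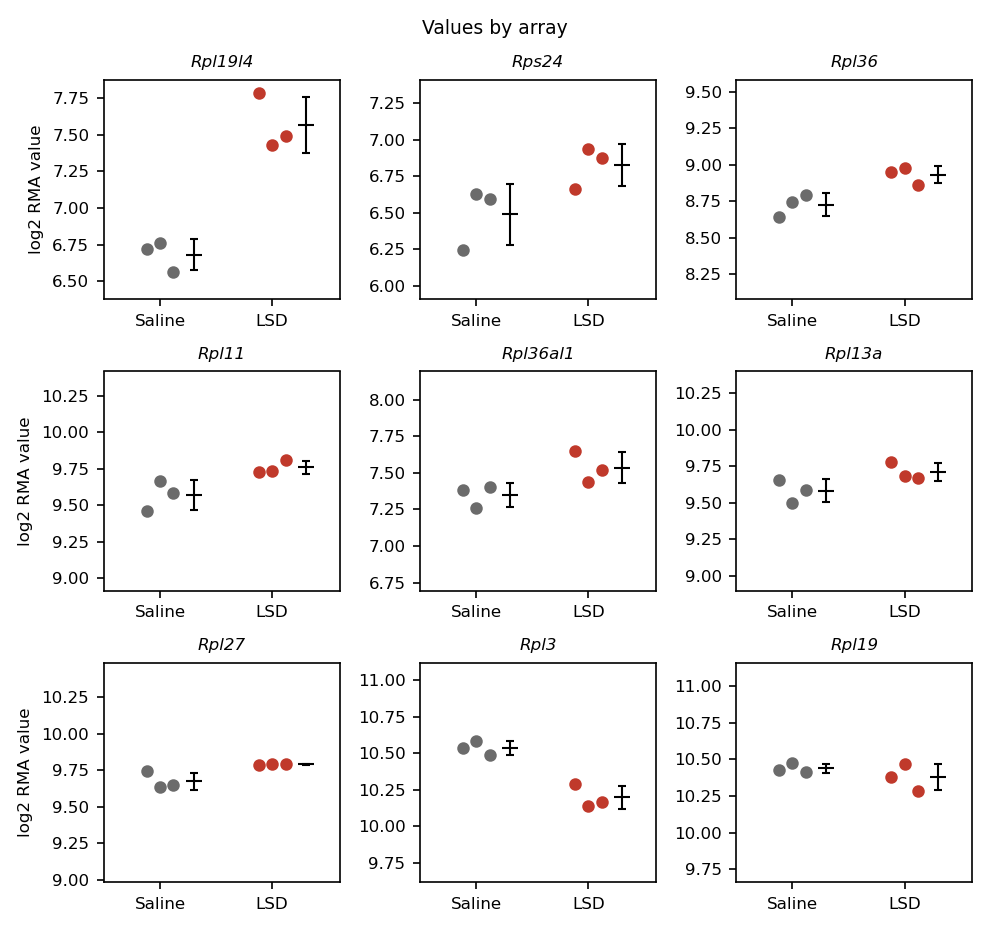
Log2 RMA values (vertical axis, spanning 1.5 log2 units in every panel) of the 8 genes whose groups do not overlap and of Rpl19, where grey points are Saline arrays and red points LSD arrays, and each bar gives a group's mean with its SD (n = 3). Rpl19l4 goes from 6.68 to 7.57 and Rpl3 from 10.54 to 10.20, the other 6 separate by less, and Rpl19 overlaps.

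Genes of known roles elsewhere in the ribosome gave small differences that overlapped between the groups. Rplp0, the base of the stalk that recruits elongation factors, had values from 10.28 to 10.44 after saline and from 10.33 to 10.40 after LSD, with a log2 change of -0.02 that turned positive with another quantile normalization (0.02) and with cyclic loess (0.02). Rpsa, a small-subunit protein also known as a laminin receptor, differed by 0.04. For Rps3, which lies where the mRNA enters the small subunit and also acts in DNA repair, the change was -0.11, with 10.54, 10.63 and 10.74 against 10.56, 10.50 and 10.51. Its other probe set differed by -0.13. Rps23, at the decoding centre, was at 10.32, 10.34 and 10.32 on Saline arrays, at 10.38 on LSD 1 and at 9.99 and 10.02 on LSD 2 and 3. The LSD arrays thus fell on both sides of the Saline arrays, and the change was -0.19 ± 0.11 (SE).

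Rps6, the small-subunit protein phosphorylated by S6 kinases after neuronal activity, had log2 values of 9.13, 8.95 and 9.13 after saline and 9.01, 9.19 and 9.03 after LSD. The groups overlapped, and the log2 change was 0.01 ± 0.094 (SE). Its dimmer probe set from the same sequence gave 8.26, 8.05 and 8.08 against 8.47, 8.29 and 8.29, all LSD arrays above all Saline arrays, with a change of 0.22 ± 0.099 (SE). The phosphorylation of the protein is not measured by these arrays.

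The genes with the largest residual SD were Rpl17, Rps24 and Rpl4. Rpl17 and Rpl4 encode proteins that line the tunnel through which the new peptide leaves. Rpl17 had values of 5.54, 6.13 and 5.96 after saline and 6.09, 5.98 and 5.94 after LSD, with a residual SD of 0.224 log2 units. Saline 1 alone was low, and the log2 change of 0.13 became -0.04 without it. The probe sets X60212_i_at and X58389cds_s_at, annotated to Rpl17 with copies and pseudogenes, were brighter (Saline means of 8.29 and 9.14). Their log2 changes were 0.40 and 0.12, both without overlap, and neither passed after adjustment (limma adjusted p = 0.981 for both). Rpl4 was at 8.51, 8.31 and 8.60 against 8.62, 8.50 and 8.22, and its change of -0.02 had an SE of 0.13.

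In 16 of the genes a further probe set could be compared with the brightest. Of 19 further probe sets 11 had the sign of the brightest, and 9 genes had probe sets of 1 sign and 7 of both signs. Within a gene the log2 changes differed from the brightest by a median of 0.085 and by at most 0.30. The genes of both signs were Rpl11, Rpl26, Rps29, Rps15, Rpsa, Rpl6 and Rpl21. Rpl26, which also binds the p53 mRNA, gave 0.18 and -0.12, the small-subunit gene Rps29 gave 0.14 and -0.03, and the large-subunit gene Rpl6 gave 0.03 and -0.12. For the small-subunit gene Rps15 the brightest probe set gave 0.07 and the other two 0.11 and -0.01.

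Rpl21, a large-subunit gene, was read by 4 probe sets. The brightest, M27905_at, overlapped between the groups with a log2 change of -0.003, which was 0.0008 with cyclic loess. By contrast, rc_AA849648_at was at 7.12, 7.21 and 7.16 on Saline arrays and at 7.40, 7.44 and 7.45 on LSD arrays. From the same sequence, rc_AA849648_g_at gave 6.13 to 6.32 against 6.49 to 6.53. Both were without overlap, with log2 changes of 0.27 ± 0.078 and 0.29 ± 0.086 (SE), and both had an unadjusted limma p below 0.05. The fourth, X15216cds_s_at, was lower on LSD 2 (8.07) and LSD 3 than on the other 4 arrays, with a change of -0.22. These 4 probe sets thus held no common direction.

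**Figure D3:**
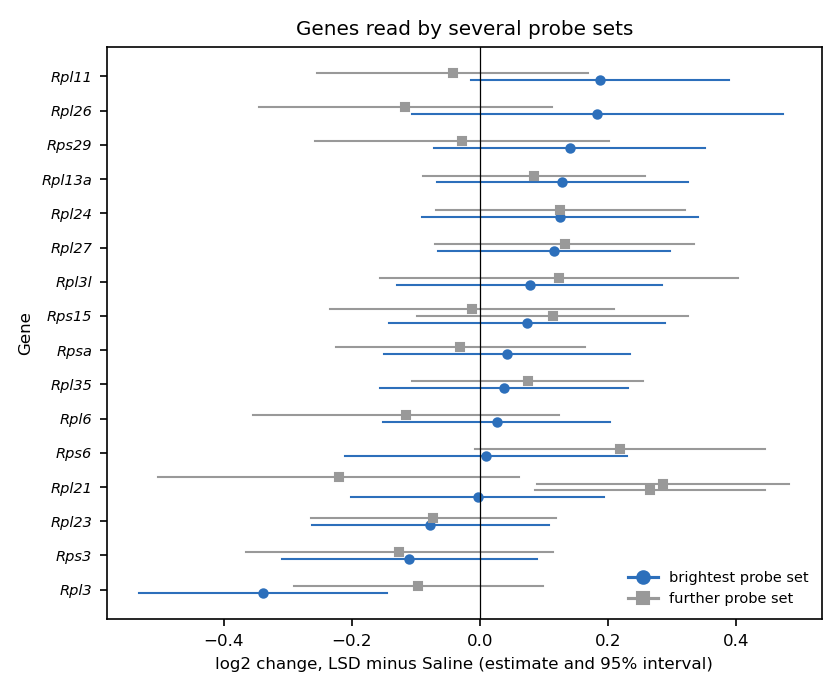
Log2 change (LSD minus Saline, horizontal axis) of every probe set of the 16 ribosomal protein genes with several (vertical axis), with lines for the 95% interval of the limma fit (n = 3 arrays per group), the brightest probe set as a blue circle and further ones as grey squares. Points of 7 genes fall on both sides of 0, and those of Rpl21 run from -0.22 to 0.29.

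Counting all 60 probe sets, 33 were higher and 27 lower after LSD, with a median log2 change of 0.027. None passed after adjustment over all 8740 probe sets, of which 0.0686% did. Of the 60, 6 higher and 1 lower had an unadjusted limma p below 0.05, against 210 and 133 of all probe sets. The groups were without overlap for 12 higher and 1 lower of the 60, against 575 and 331 of all. Several of the 60 read the same gene. Another 37 probe sets are annotated to several ribosomal protein genes, copies or pseudogenes at once and name no single gene. Of these 19 were higher and 18 lower, with a median of 0.008 and a range from -0.28 to 0.40. An unadjusted limma p below 0.05 was found for 2 higher and 2 lower among them, against 210 and 133 of all 8740 probe sets. The groups did not overlap for 4 higher and 4 lower, against 575 and 331 of all probe sets. None of the 37 passed after adjustment.

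No treatment held the genes on 1 side of their means on all of its arrays. Each gene was set against its own mean over the 6 arrays. On Saline 1, 2 and 3 there were 23, 18 and 20 of the 41 genes above their mean, and on LSD 1, 2 and 3 there were 29, 22 and 18. Over all genes the shares above the mean differed by array too, from 45.9% on Saline 1 to 58.0% on LSD 3. The ribosomal protein genes and all genes lay furthest apart on LSD 1 (70.7% against 46.7%) and LSD 3 (43.9% against 58.0%), in opposite directions. The median deviation was 0.009, -0.018 and -0.002 log2 units on the Saline arrays and 0.033, 0.003 and -0.025 on the LSD arrays. LSD 1 was the highest and LSD 3 the lowest of the 6, so the groups overlapped. The median log2 change of the 41 genes was 0.0054 without Saline 2 and between 0.025 and 0.046 without any other single array.

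**Figure D4:**
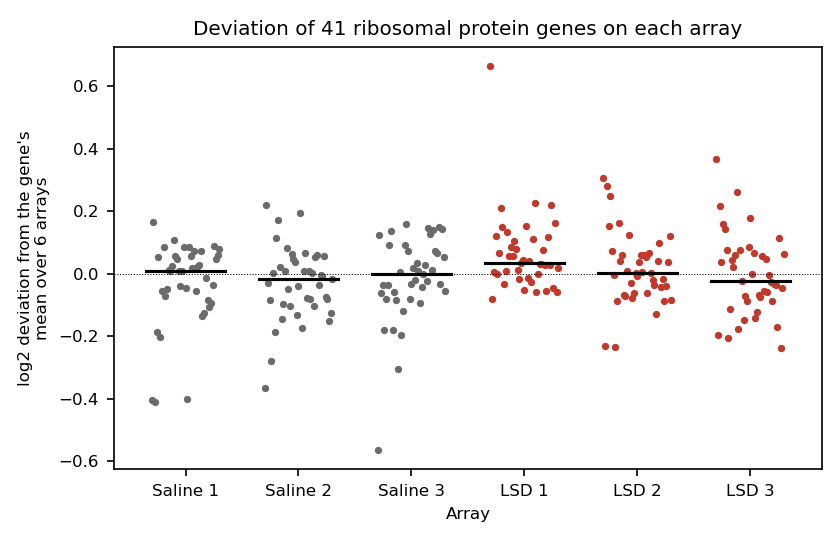
Deviation of each of the 41 ribosomal protein genes from its own mean over the 6 arrays (log2 units, vertical axis) on each array (horizontal axis), Saline in grey and LSD in red, with a black line for the median of the 41. The medians run from -0.025 on LSD 3 to 0.033 on LSD 1, and the single point above 0.6 on LSD 1 is Rpl19l4.

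Set beside the sequences shown above, the 20 genes with a pyrimidine run of at least 10 bases near their start had a median log2 change of 0.012, with 10 of them higher after LSD. The 16 genes with a shorter run had a median of 0.034, with 11 higher. Rps24, with a run of 17 bases, lay at 0.34. Rpl19 and Rpl31, each with a run of 12, both lay at -0.06, and Rpl3, with a run of 5, at -0.34. In 7 further genes known for TOP mRNAs, 1 was higher and 6 lower, with a median of -0.040. They included Rack1, a scaffold on the small subunit (-0.14), Eef2, the translocation factor (-0.08), Naca, which binds new peptides (0.09), and Eef1g (-0.04).

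Other parts of the translation apparatus were read from lists of genes in the same fit. Translation factors had 16 of 21 members higher with a median log2 change of 0.077, and 3 of their 5 lower members (Eef2, Eef1g and Eef1a1) are also among the 7 TOP genes above. The list held Eif4h, a helper of the helicase that unwinds mRNA leaders (0.23), the neuronal elongation factor Eef1a2 (0.16), Eif5 (0.15) and Eif2b2 (0.14). Ribosome biogenesis genes had 7 of 13 higher, with a median of 0.034, from nucleolin (Ncl, -0.23) to nucleostemin (Gnl3, 0.23), with Polr1b, a subunit of RNA polymerase I, at 0.13 and Nvl at 0.10. Genes of mTOR and S6 kinase signalling had 6 of 15 higher and a median of -0.018, with Pdpk1, a kinase that activates Akt and S6 kinases, at 0.20, Max, the partner of Myc, at -0.28, Tsc2, an inhibitor of the pathway, at 0.13 and Akt2 at 0.14. Mitochondrial ribosomal proteins, which serve a separate ribosome, had 11 of 14 higher and a median of 0.040, with Mrpl50 at 0.14, Mrps31 at 0.13 and Mrpl45 and Mrpl3 at 0.09. In these 5 lists no member passed, and none had an unadjusted limma p below 0.05 in either direction.

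Some probe sets name ribosomal RNA genes, each under more than 1 name, and cannot be assigned to 1 transcript. How far their signal follows the level of ribosomal RNA was not tested. Those called rc_AA893870_at, rc_AA893870_g_at, rc_AA894148_s_at and X00722_at name only Rn28s and Rn45s, both ribosomal RNA genes, and were lower after LSD. The other probe sets, rc_AA859372_s_at and rc_AI176460_s_at, also name protein-coding genes. Of all 6 probe sets 5 were lower and 1 (rc_AI176460_s_at) higher after LSD, with log2 changes from -0.95 to 0.52. The groups overlapped in none of the 6, and 906 of all 8740 probe sets were without overlap. The 2 lowest, rc_AA859372_s_at at -0.95 and rc_AA893870_g_at at -0.86, passed after adjustment over all probe sets (limma adjusted p = 0.0225 for both). The smallest log2 change of either in the alternatives run was -0.83, but neither passed with the replicate number as a block (limma adjusted p = 0.125 and 0.151), nor without any single array other than Saline 1, and over the alternatives run the limma adjusted p ranged from 0.000631 to 0.237.

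Among the 6 arrays Saline 1 stood apart, since 78 of its probe sets lay over 1 log2 unit away from the other arrays' mean, against 2 to 21 on those arrays; no ribosomal protein gene was among them on any array. The difference between the probe sets at both ends of the beta-actin transcript, a measure of RNA quality, was 0.75 to 0.83 log2 units on Saline and 0.64 to 0.71 on LSD arrays, without overlap. For GAPDH it was 0.47 to 0.56 on Saline and 0.40 to 0.58 on LSD arrays, with overlap. The part of RNA quality in the values above was not tested. Of the cell type markers, 5 of 5 measured for choroid plexus and 8 of 9 for striatum were lower after LSD. The summed linear signal of the first list was 1878 to 2048 on Saline and 1449 to 1555 on LSD arrays, and of the second 1099 to 1162 and 999 to 1113. Bright members weigh most in such a sum. The mean log2 value was 7.59 to 7.64 against 7.31 to 7.43 for the first list and 6.09 to 6.13 against 5.88 to 5.98 for the second. An unadjusted limma p below 0.05 was found for 3 lower members of each list, against 1.16% of all genes, and none passed after adjustment. The part of these lists in the values above was not tested either. Medians of the 7 other brain and blood cell lists lay between -0.043 and 0.033, but single members differed in both directions. Among 7 astrocyte markers an unadjusted limma p below 0.05 was found for 1 higher (Aqp4, 0.41) and 2 lower (S100b, -0.24, and Slc1a3, -0.25). Of 9 microglia markers it was found for 1, which was higher. Over all genes the shares were 2.47% higher and 1.16% lower, and none of these markers passed after adjustment. The excitatory neuron markers of cortex were read at mean log2 values of 11.0 for Nrgn and 4.83 for Slc17a7 on Saline arrays, and without detection calls a low value could not be called absent.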

How the data were processed

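The authors normalised the raw arrays by RMA in affy and deposited log2 values (version not given in the sources used here). RMA corrects background, applies quantile normalization and summarises probes. A shift shared by most transcripts is thereby hidden, and differences of dim probe sets are compressed. Depth does not apply, and the number of arrays limits the precision. Of 8799 probe sets, 59 controls were left out. The platform annotation gave 7006 of the rest 1 symbol, 308 several and 1426 none. The brightest probe set, the rule of the study's methods, gave 4736 genes, and 40 of the 41 members matched RefSeq by gene ID, with 0 symbols changed.

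LSD and Saline arrays were compared in R 4.3.3 with limma 3.58.1 (lmFit, eBayes, no covariate, two-sided, Benjamini-Hochberg adjustment over all genes or all probe sets, threshold 0.05). The script was tested on simulated data. Members, lists and tests were chosen with earlier results of these data known. The genes named were those with an unadjusted p below 0.05, those without overlap (at most 12), members of known roles, the 3 of largest residual SD, those whose probe sets differed in sign, and up to 4 per other list; Rps23, Rpl31 and Rpl3l were added after their values were seen. Promoters were searched with Python 3.11.15. The alternatives were 3 other scalings, a filter leaving out the dimmest 25%, an intensity trend with robust prior, array weights, the replicate block, the mean or the most variable probe set of a gene, leaving out multi-match probe sets, an exact Wilcoxon test and leaving out each array.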

Additional observations from a re-analysis of the deposited data

How the results depend on the processing

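With 3 arrays per group and no detection calls, only differences well above the spread between arrays could be called. No ribosomal protein gene passed the threshold, and 1, Rpl19l4, did with the dim filter, the trend with robust prior, array weights and the mean of probe sets (limma adjusted p of 0.0353, 0.00823, 0.0105 and 0.0445, with a range from 0.00823 to 0.501 over all 15 alternatives). At the probe set level 1 passed with the first 3 of these. The dim filter tests fewer genes; otherwise the cause was not tested. The 5 genes with an unadjusted limma p below 0.05 (172 of all genes) became 12 with array weights (700 of all genes). They became 3 with the replicate block, 3 with the most variable probe set and 3 without multi-match probe sets (31 members left). The exact Wilcoxon test, whose smallest p is 0.1, gave 0. For the other alternatives, also those leaving out an array, counts over all genes are not given here. A change particular to these genes cannot be read from them. The median log2 change of 0.028 was 0.0705 with another quantile normalization and 0.0633 with cyclic loess, where the median of all genes was 0.0037 and -0.0050. Signs turned for Rplp0 (0.022 and 0.018 in these 2 scalings), Rpl21 (0.00080 with loess, 0.082 with the mean), Rpl17 (-0.0029 with array weights), Rpl6 (-0.045 with the mean, -0.12 with the most variable), Rpsa (-0.031 with the most variable) and Rps29 (-0.027 without multi-match probe sets). Leaving out 1 array at a time gave 0 to 0 genes and 0 to 0 probe sets past the threshold, 2 to 5 genes with an unadjusted p below 0.05 (2 without LSD 2, 3 without LSD 3), a median of 0.0054 to 0.046, and changes from -0.044 to 0.25 for Rpl17, -0.035 to 0.038 for Rpl21, -0.070 to 0.011 for Rplp0, -0.052 to 0.042 for Rps6 and -0.11 to 0.088 for Rpl4. Same-numbered arrays did not deviate together (correlations of -0.018, -0.23 and 0.17), so the replicate block is given only as an alternative.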
